A study of Homo sapiens with 3 samples.

Results

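Long intergenic non-coding RNAs (lincRNAs) were followed through a knockdown of FOXP4, a forkhead transcription factor, in cells labelled NCI-N87, a gastric cancer line. The genes were chosen by name and level: rows of the deposited matrix whose symbol is LINC followed by digits only, with a mean of at least 1 TPM (a transcript's share of reads after correction for its length, scaled to a fixed total) over the 3 libraries. That gave 110 genes among the 497 rows with such a symbol, out of 31907 rows in all and 14429 genes at that level. Levels were thus part of the choice. Differences between libraries were not used by the rule, but the large one of LINC00659 was known when the class was chosen.

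The knockdown cells received an siRNA against FOXP4, siRNA1 in 1 library and siRNA2 in another, with the genotype given as Knockdown. The control cells received a scrambled siRNA (siScramble), with the genotype given as WT. All 3 were transfected with Lipofectamine 2000, and poly(A) RNA was sequenced. The siRNAs are different reagents, the control has 1 library, the time after transfection is not given in the sources used here, and separate cultures are not stated. A YAP1 knockdown, named in the study's title, was not analysed here. FOXP4 measured 51.6 TPM with siRNA1 and 36.7 TPM with siRNA2, against 93.9 TPM with siScramble. Its mean difference in log2(TPM + 1) was -1.09, and -0.60 once the trend of differences on GC content was removed. The size of the knockdown thus depended on that correction. The 7 epithelial markers lay between 3.39 and 1930 TPM and summed to 3225 and 4798 TPM with siRNA1 and siRNA2, against 4519 TPM with siScramble. NCI-N87 is known for amplified ERBB2 and CDH1 is the epithelial cadherin. ERBB2 measured 58.9 and 63.9 TPM with the siRNAs, against 89.8 TPM with siScramble, and CDH1 5.86 and 11.6 TPM, against 4.16 TPM, both far below EPCAM (1150 and 813 TPM with the siRNAs, against 1136 TPM with siScramble). Low ERBB2 and CDH1 in all 3 libraries go against what is known of the line, so its identity rests on the labels. The 5 fibroblast markers summed to 6.42 and 22.4 TPM with the siRNAs, against 13.1 TPM with siScramble, nearly all of it COL1A1, with COL1A2, DCN and LUM at 0. The 4 immune markers in the table summed to 3.66 and 4.61 TPM, against 4.75 TPM, with CD14 at 0, and the 2 endothelial ones to 0 and 0.083 TPM, against 0 TPM. Their part in the results was not tested.

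LincRNAs are transcribed from DNA between protein-coding genes, and most are capped, spliced and polyadenylated like mRNAs. Some act in the nucleus on nearby genes, some act in the cytoplasm by binding proteins or microRNAs, and for many no function is known. A LINC number is a placeholder name, so the class also holds RNAs that were later renamed, and some that were later found to encode small proteins. Epithelial tumours are known to express many of them in a line-specific way.

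LINC00659 had the largest difference from the control of the 110 genes with either siRNA. It measured 701 TPM with siRNA1 and 1083 TPM with siRNA2, against 44.1 TPM with siScramble, ratios of 15.9 and 24.6. Both knockdown values lay far above the control value, and the gap between the siRNAs was small beside it. All differences here are on the log2(TPM + 1) scale, which understates the change of low genes. For LINC00659 they were 3.96 with siRNA1 and 4.59 with siRNA2, and averaged 4.27 ± 0.44 (SD, n = 2). Only 2 of the 14429 genes had a larger difference by the smaller of their 2 values. By TPM it was row 159 of the matrix with siRNA1 and row 100 with siRNA2, against row 4314 with siScramble. LINC00659 has been studied in colon cancer cells. It is annotated in GENCODE 29 (ENSG00000228705.1, GRCh38, chromosome 20, 62774128 to 62775412, minus strand) with 540 bases of exon, so its TPM stood for about 1723 and 2710 reads with siRNA1 and siRNA2 and about 112 reads with siScramble. Counting error alone put the siScramble level between 36.3 and 53.0 TPM (exact Poisson interval, 95%).

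In limma over all 14429 genes the LINC00659 difference did not pass (adjusted p = 0.9999, Benjamini-Hochberg). The fit had 1 residual degree of freedom, from the gap between the siRNAs, and limma called 0.0% of all genes, 0 of 14429. With genes of at least 10 TPM, where all genes shared 1 variance trend, LINC00659 rose (adjusted p = 5.70e-10), among the 1.02% of 9129 genes called. With mitochondrially encoded genes left out it also rose (adjusted p = 0.00608). Its adjusted p in limma ranged from 5.70e-10 to 0.9999 over the settings run. No other LINC gene was called in any setting tried.

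The protein-coding genes on either side of LINC00659 differed less than it did. NTSR1, a neurotensin receptor gene 11357 bases away on the other strand, measured 10.3 and 15.6 TPM with siRNA1 and siRNA2, against 8.42 TPM with siScramble. MRGBP, on the other side, measured 84.5 and 76.3 TPM with the siRNAs, against 94.3 TPM with siScramble. The row RP11-93B14.4 has no position or gene type in the annotation used here, so whether it lies near LINC00659 is not given there. It was higher with both siRNAs, at 4.16 and 6.72 TPM, against 0.57 TPM with siScramble, differences of 1.71 and 2.29. MRGBP and RP11-93B14.4 were named after their values were seen.

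The start-site windows of 4 LINC genes above the control with both siRNAs, and of LINC01124, the lowest of all with siRNA2, are shown so that the promoters of genes that stood apart can be compared. Each holds 250 bases before a RefSeq start and 50 after it (GRCh38.p14), 5′ to 3′ on the gene's strand. Capitals mark matches on either strand to AP-1 (TGANTCA), the core of the cyclic AMP response element, CRE (TGACG), a forkhead motif (TGTTTAC), TEAD (GGAATG) or EGR (GCGNGGGCG).
LINC00659, chr20:62776807-62777106, minus strand: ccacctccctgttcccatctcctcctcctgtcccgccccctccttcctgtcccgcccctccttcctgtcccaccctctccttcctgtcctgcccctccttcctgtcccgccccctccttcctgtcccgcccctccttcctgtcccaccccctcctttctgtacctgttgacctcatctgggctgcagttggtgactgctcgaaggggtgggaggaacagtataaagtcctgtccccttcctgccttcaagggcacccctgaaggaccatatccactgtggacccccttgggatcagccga
LINC00973, chr3:98980805-98981104, plus strand: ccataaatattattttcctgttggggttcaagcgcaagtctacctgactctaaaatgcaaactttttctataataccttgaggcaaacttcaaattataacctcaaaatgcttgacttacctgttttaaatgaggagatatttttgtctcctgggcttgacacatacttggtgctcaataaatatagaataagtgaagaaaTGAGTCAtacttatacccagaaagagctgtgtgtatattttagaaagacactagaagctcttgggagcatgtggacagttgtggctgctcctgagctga
LINC00941, chr12:30795431-30795730, plus strand: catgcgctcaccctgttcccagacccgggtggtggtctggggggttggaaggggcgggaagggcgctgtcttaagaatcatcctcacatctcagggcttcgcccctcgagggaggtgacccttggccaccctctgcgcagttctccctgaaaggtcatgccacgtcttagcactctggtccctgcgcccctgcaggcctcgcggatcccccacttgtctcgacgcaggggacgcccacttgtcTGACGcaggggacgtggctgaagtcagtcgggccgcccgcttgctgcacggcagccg
LINC00460, chr13:106376314-106376613, plus strand: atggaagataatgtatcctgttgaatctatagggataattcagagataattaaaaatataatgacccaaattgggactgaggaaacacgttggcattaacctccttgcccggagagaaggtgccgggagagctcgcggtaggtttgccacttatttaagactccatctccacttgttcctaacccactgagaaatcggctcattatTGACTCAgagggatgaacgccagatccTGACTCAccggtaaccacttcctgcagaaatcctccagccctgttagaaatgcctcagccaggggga
LINC01124, chr2:170714518-170714817, minus strand: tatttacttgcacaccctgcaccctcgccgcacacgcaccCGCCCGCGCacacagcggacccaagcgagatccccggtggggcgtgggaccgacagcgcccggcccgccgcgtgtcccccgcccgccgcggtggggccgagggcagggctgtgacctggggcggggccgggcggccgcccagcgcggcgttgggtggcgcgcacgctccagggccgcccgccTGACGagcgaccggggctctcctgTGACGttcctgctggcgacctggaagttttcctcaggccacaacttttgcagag
The LINC00659 window held none of the 5 motifs and 6 copies of the 12-base stretch ctccttcctgtc. The RefSeq start lies outside the GENCODE 29 gene, so the sources differ in where LINC00659 begins. LINC00460 held a pair of AP-1 matches, 44 and 17 bases before the start, and LINC00973 held 1, 49 bases before it. LINC00941 held a CRE core 7 bases before the start. LINC01124 held CRE cores at 28 and 4 bases and an EGR match 210 bases before its start. Windows of LINC00843 and LINC01394, also at least 2-fold higher with both siRNAs, are not printed. The LINC00843 window is that of RefSeq TIMM23B-AGAP6 (chromosome 10, 49941803 to 49942102), outside the GENCODE 29 LINC00843 gene (49972763 to 49982053). This window held a forkhead match 159 bases before the RefSeq start, a CRE core and 2 TEAD matches. It was the 1 window with a forkhead match among the 11 of the higher genes. The LINC01394 windows are those of RefSeq FOXF2-DT, between 1389412 and 1391309 on chromosome 6. They too lie outside the GENCODE 29 gene, LINC01394 at 1321698 to 1324022. Among these windows were a CRE core and an EGR match. Across the 96 windows found for 82 of the LINC genes, 11.5% held an AP-1 match, against 7.71% of all 35116 RefSeq windows. For the CRE core the shares were 31.2% and 24.6%, for TEAD 13.5% and 14.0%, for EGR 11.5% and 9.43%, and for the forkhead motif 5.21% and 3.42%. No matches of different motifs overlapped in the 96 windows. A match is a run of letters and was not tested for binding.

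As a class the 110 genes were low. Their median level was 3.32 TPM, against 28.8 TPM for the 11216 protein-coding genes that reached the same mean. Only LINC00657 and LINC00659 averaged over 100 TPM, 28 genes lay between 10 and 100 TPM, 51 between 2 and 10 TPM and 29 between 1 and 2 TPM. The gene models were short, with a median of 2618 bases of exon against 5081 bases for protein-coding genes, and a median of 3 exons against 8. In 16.8% of placed LINC genes the longest transcript had a single exon, against 3.39% of protein-coding genes. GC content was alike, with medians of 47.9% and 48.3%. Short and low transcripts rest on few reads: 24 LINC genes had at least 100 estimated reads in every library, while 5 had fewer than 10 in each.

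Of the 110, 107 were placed in GENCODE 29, 93 by symbol and 14 through an older symbol, on 22 chromosomes. GENCODE 29 lists 76 as lincRNA, 11 as antisense, 5 as protein-coding and the rest as other transcripts or pseudogenes. In 34, an exon overlaps an exon of another gene, and 23 overlap the body of their nearest protein-coding gene. The labels' protocols do not mention strand, so reads of overlapping genes could not be told apart. In 10, the start lies within 2000 bases of that of the nearest protein-coding gene, read away from it on the other strand without overlap. Pairs on opposite strands that overlap at their starts were not counted there.

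Among LINC rows left out, 176 were at 0 in every library and 211 lay above 0 at a mean under 1 TPM. The genes nearest the threshold were LINC01251 (mean 1.03 TPM), LINC01537 (1.04 TPM) and LINC00969 (1.04 TPM) inside it. Just outside it were LINC01386 (0.98 TPM), LINC01515 (0.97 TPM) and LINC00853 (0.97 TPM). Of the 211, the siRNAs both gave a log2(TPM + 1) value 2-fold or more above siScramble for 1 and below it for 3. At such levels the added 1 keeps these counts small, so they say little about the rows.

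Together the 110 genes took 0.260% of all TPM with siRNA1 and 0.260% with siRNA2, against 0.154% with siScramble. LINC00657 and LINC00659 alone made up 65.2% and 71.0% of that with the siRNAs, against 42.9% with siScramble. Without that pair the sums were 904 and 752 TPM with siRNA1 and siRNA2, against 876 TPM with siScramble. The higher total of the class in the knockdown libraries thus lay in those 2 genes.

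LINC00657, now named NORAD, is an unspliced RNA known to bind Pumilio proteins and to guard chromosome stability. It measured 992 and 758 TPM with siRNA1 and siRNA2, against 615 TPM with siScramble, differences of 0.69 and 0.30. Both knockdown values were above the control value, with a mean difference of 0.50 ± 0.27 (SD, n = 2) that stayed under 2-fold. It rested on about 24138 and 18758 reads with siRNA1 and siRNA2, and 15463 with siScramble. LINC01133, expressed in several carcinomas, measured 44.7 and 54.7 TPM with the siRNAs, against 51.5 TPM with siScramble, so its libraries lay close together. LINC00239 measured 44.3 and 60.5 TPM with siRNA1 and siRNA2, against 33.9 TPM with siScramble. LINC00857, also studied in carcinoma, measured 23.2 and 18.3 TPM with the siRNAs, against 30.6 TPM with siScramble. LINC00205, whose start lies 152 bases from that of POFUT2 on the other strand, measured 21.9 and 16.4 TPM with the siRNAs, against 21.2 TPM with siScramble.

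**Figure D1:**
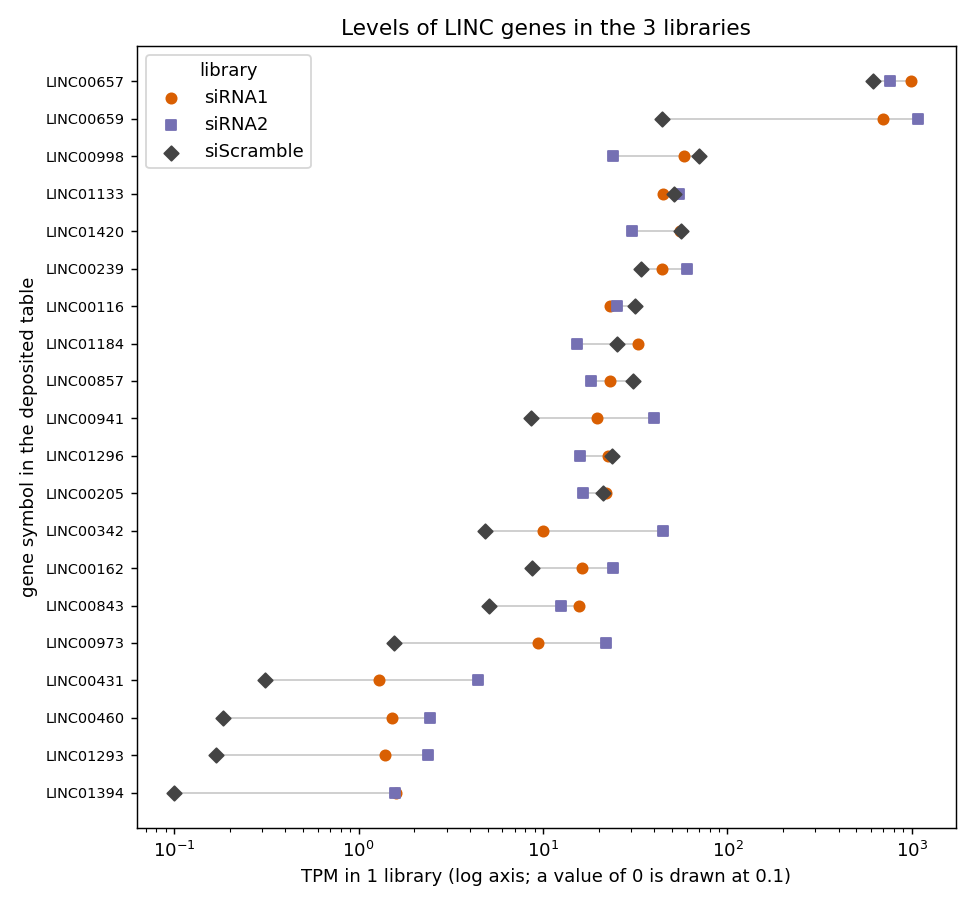
TPM (log axis) of LINC genes in the siRNA1, siRNA2 and siScramble libraries, for the 12 highest by mean and the 10 highest over siScramble with both siRNAs. Each symbol is 1 library, and a value of 0 is drawn at 0.1. LINC00659 sits at 701 and 1083 TPM with the siRNAs, against 44.1 TPM with siScramble, while LINC01133 stays between 44.7 and 54.7 TPM.

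The first comparison asked which LINC genes went with FOXP4 knockdown. By size, 7 of the 110 were at least 2-fold higher with both siRNAs, and 0 were at least 2-fold lower with both (6 with a pseudocount of 0.1). Among all 14429 genes 2.52% were higher and 2.38% lower by that rule. At 4-fold the rule left LINC00659 and LINC00973, 2 of 110, where 0.444% of all genes met it. In limma 0 of the 110 passed, and LINC00659, LINC00973 and LINC00941 had an unadjusted p under 0.05, as 2.97% of all genes did. Both siRNAs were set against the same control library, so an error in it would enter both differences.

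LINC00973 stood second to LINC00659. It measured 9.36 and 21.98 TPM with siRNA1 and siRNA2, against 1.55 TPM with siScramble, a mean difference of 2.60 ± 0.81 (SD, n = 2). Both knockdown libraries were above the control, and siRNA2 was above siRNA1. The gene (ENSG00000240476.1, chromosome 3, 98981058 to 98983096, plus strand) has 962 bases of exon, so its control level rested on about 7 reads, with a counting interval of 0.62 to 3.18 TPM. The siRNA1 interval, 6.71 to 12.7 TPM, lay wholly above the siScramble one. Its window above holds an AP-1 match, and of its 4 RefSeq windows 3 do. The limma difference did not pass (adjusted p = 0.9999).

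LINC00941, a lincRNA studied in gastric and other carcinomas, measured 19.6 and 40.1 TPM with siRNA1 and siRNA2, against 8.62 TPM with siScramble. The level was highest with siRNA2 and lowest with siScramble, each a single library. Its mean difference was 1.596 ± 0.70 (SD, n = 2), adjusted p = 0.9999 in limma. GENCODE 29 gives this symbol to a pair of overlapping genes on chromosome 12 (30755167 to 30802602 and 30795458 to 30879268, plus strand), so no exon length was assigned and no reads were estimated. LINC00460, known from several carcinomas, lay lower, at 1.52 and 2.44 TPM with the siRNAs, against 0.18 TPM with siScramble. These values stood for about 29.4 and 47.8 reads with siRNA1 and siRNA2 and 3.67 with siScramble, and the counting intervals of siRNA1 (1.01 to 2.16 TPM) and siScramble (0.06 to 0.51 TPM) did not meet. The gene (ENSG00000233532.6, chromosome 13, 106374477 to 106384315, plus strand) is the one with a pair of AP-1 matches before its RefSeq start. With the GC trend removed its difference was 0.83 with siRNA1 and 1.73 with siRNA2, which ends the 2-fold call.

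LINC00460, LINC01293 and LINC01394 lay under 1 TPM with siScramble and reached the mean of 1 TPM only through the knockdown libraries, so for them the filter used the difference that the rule counts. The remaining 3 genes of the rule carry further limits. LINC00843 measured 15.7 and 12.4 TPM with siRNA1 and siRNA2, against 5.08 TPM with siScramble, but its exons overlap TIMM23B on the same strand and RefSeq now lists it under the readthrough gene TIMM23B-AGAP6. LINC01293 measured 1.39 and 2.39 TPM with the siRNAs, against 0.17 TPM with siScramble, the last standing for about 1 read. LINC01394 measured 1.59 and 1.57 TPM with the siRNAs and was listed at 0 with siScramble, with about 3 reads in each knockdown library, so no ratio is given. Among genes with at least 10 estimated reads in their highest library, a limit added after seeing the data, 5 of 102 met the rule. Under median-of-ratios rescaling 6 did, without LINC01293, and with a pseudocount of 5 only LINC00659 and LINC00973 did.

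RefSeq gives LINC01293 as another name of LINC01291, which lies just before it on the same strand of chromosome 2. The matrix rows of the pair differed. LINC01291 measured 7.57 and 1.76 TPM with siRNA1 and siRNA2, against 7.17 TPM with siScramble, so it was low with siRNA2, where LINC01293 was at its highest. LINC01291 was named after its values were seen.

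**Figure D2:**
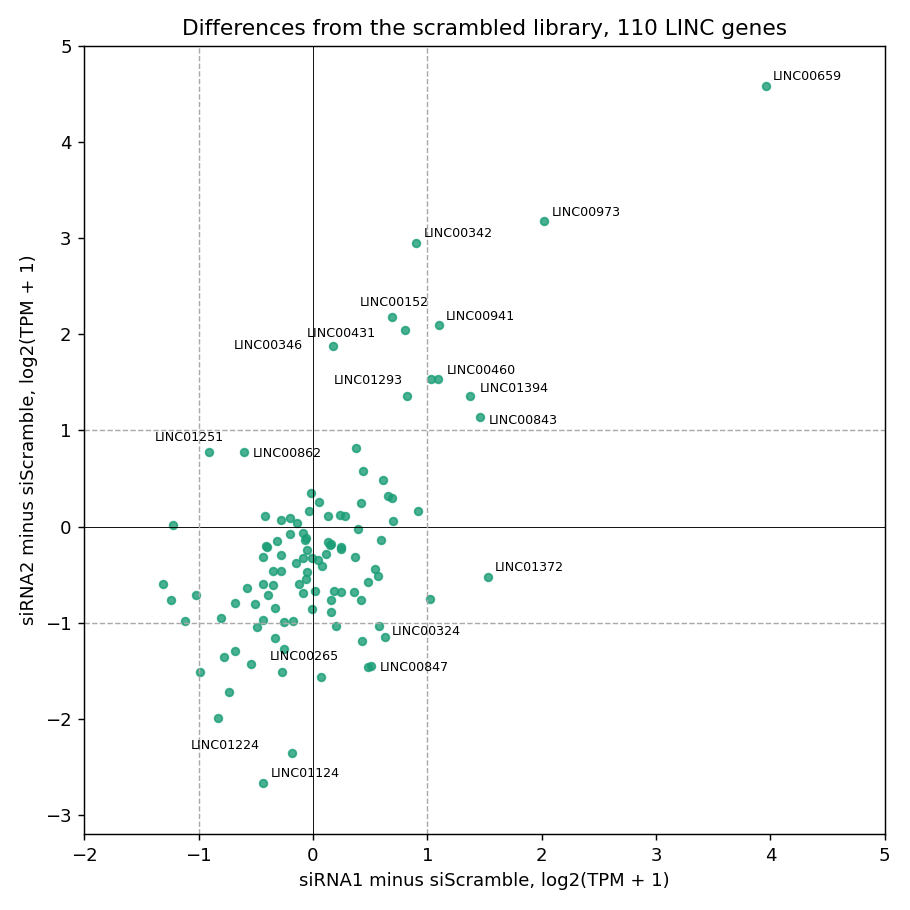
Difference from siScramble on the log2(TPM + 1) scale with siRNA1 (x axis) and siRNA2 (y axis) for each of the 110 LINC genes. Dashed lines mark 2-fold. LINC00659 lies far from the rest at 3.96 and 4.59, 7 points fall in the upper right corner and 0 in the lower left.

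Taken over all 110 genes, differences from siScramble were close to those of the matrix as a whole. The median was -0.01 with siRNA1 and -0.36 with siRNA2, where all 14429 genes had 0.03 and -0.24. The downward median with siRNA2 was thus shared by all genes, and under median-of-ratios rescaling it was -0.22 for the LINC genes and -0.07 for all genes. Of the 110, 24 were higher with both siRNAs, 47 lower with both, 30 higher with siRNA1 and lower with siRNA2, and 9 the other way round. Those are 21.8% higher and 42.7% lower with both, against 24.5% and 38.1% of all genes.

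**Figure D3:**
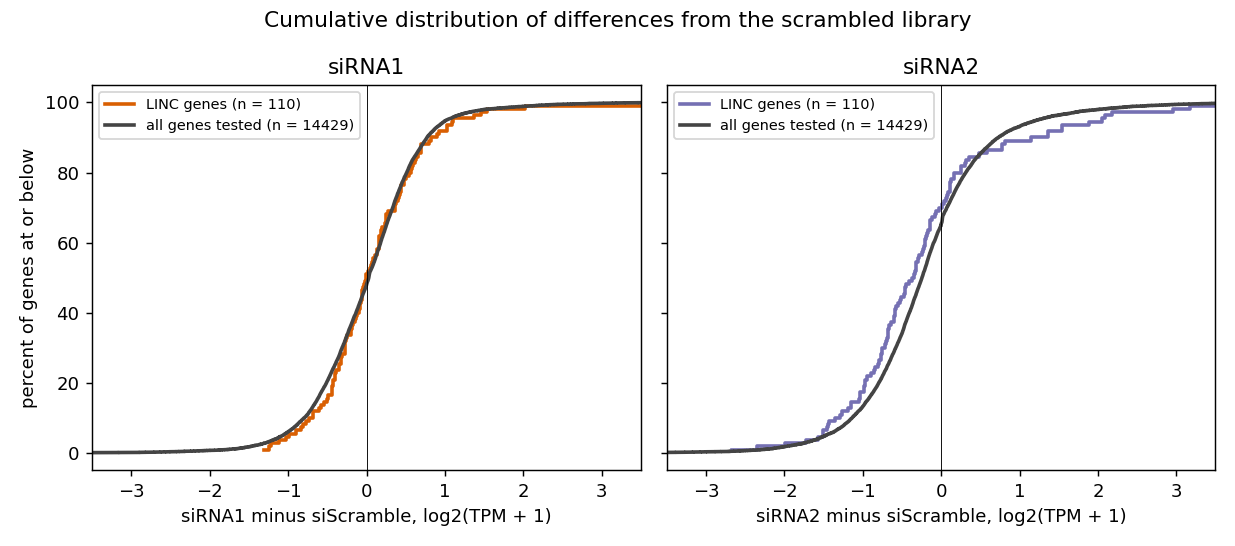
Cumulative percent of genes at or below each difference from siScramble (log2(TPM + 1)) with siRNA1 and siRNA2, for 110 LINC genes and all 14429 genes. With siRNA1 the curves run close together, with medians of -0.01 and 0.03. With siRNA2 the LINC curve lies left of that of all genes around its median of -0.36 and right of it above a difference of 1.

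Single siRNAs gave more genes past 2-fold. With siRNA1, 9 LINC genes were at least 2-fold higher and 5 lower than siScramble, where 5.27% and 6.0% of all genes were. Beside the 7 above, LINC00920 measured 15.1 TPM with siRNA1 and 3.72 TPM with siRNA2, against 6.93 TPM with siScramble, and LINC01372 3.14 and 0 TPM, against 0.43 TPM. LINC01372 reached the mean of 1 TPM only through siRNA1, so for it the filter used the difference counted. The 5 lower ones were LINC00337, LINC01023, LINC00524, LINC01385 and LINC00165. Of these LINC00165 was low with siRNA1 alone, at 0.53 TPM, with 2.62 TPM with siRNA2 and 2.58 TPM with siScramble. LINC01385 reached the mean of 1 TPM only through siScramble, so for it too the filter used the difference counted. Members outside the named-gene rule were named after their values were seen. With siRNA2, 12 were higher and 19 lower, where 6.88% and 13.2% of all genes were. The 12 include LINC00346 and LINC00431, which reached the mean of 1 TPM only through siRNA2. The 19 include LINC00235, LINC01011 and LINC01479, which reached it only through siScramble. The split with siRNA2 moved with the scaling, to 14 higher and 13 lower under quantile normalization and 12 and 12 with the trend of differences on GC content removed. With siRNA1, removing the GC trend gave 6 higher and 2 lower. GC content moved with the siRNA1 differences: across the 107 LINC genes with a sequence the Spearman correlation was -0.35 with siRNA1 and -0.17 with siRNA2, against -0.61 and -0.10 across all annotated genes. All these points share the same libraries and the correlations are given without a test.

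A group of LINC genes stood above siScramble mainly with siRNA2. LINC00342 measured 9.98 and 44.4 TPM with siRNA1 and siRNA2, against 4.87 TPM with siScramble, so its siRNA2 level was far above the others. ANKRD36C, its nearest protein-coding gene, measured 11.8 and 29.8 TPM with the siRNAs, against 4.86 TPM with siScramble. LINC00152, now CYTOR, a cytoplasmic lincRNA known from gastric and other carcinomas, measured 5.08 and 16.0 TPM with siRNA1 and siRNA2, against 2.77 TPM with siScramble. It has a near-identical copy, MIR4435-2HG, and reads may be shared between them. The row named MIR4435-1HG, placed on chromosome 2 at 111036776 to 111523376, may be that copy under an older name. It measured 4.37 and 17.6 TPM with the siRNAs, against 5.62 TPM with siScramble, and was also highest with siRNA2. As reads may be shared, the 2 rows are not separate observations.

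LINC00346 and LINC00431, which flank ANKRD10 on chromosome 13, were likewise highest with siRNA2. LINC00346, now PRECSIT, measured 0.63 and 4.31 TPM with siRNA1 and siRNA2, against 0.44 TPM with siScramble, about 18, 125 and 13 reads. It reached the mean of 1 TPM only through siRNA2, so for it the filter used the difference described here. LINC00431 measured 1.28 and 4.42 TPM with the siRNAs, against 0.31 TPM with siScramble, the last about 1.74 reads. LINC00431 likewise reached the mean of 1 TPM only through siRNA2. ANKRD10, the protein-coding gene nearest to both, measured 53.2 and 45.0 TPM with the siRNAs, against 54.2 TPM with siScramble, so it did not share that pattern. LINC00162, now PICSAR, named for its link to p38 signalling in skin carcinoma, measured 16.2 and 23.8 TPM with siRNA1 and siRNA2, against 8.69 TPM with siScramble.

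On the log2(TPM + 1) scale no LINC gene was at least 2-fold below siScramble with both siRNAs, and LINC01023 and LINC01269 came nearest. In plain TPM both were more than 2-fold lower with either siRNA. With a pseudocount of 0.1 in place of 1, 6 LINC genes were at least 2-fold lower with both. LINC01023, an unspliced transcript with 63.5% GC, measured 7.55 and 8.41 TPM with siRNA1 and siRNA2, against 17.5 TPM with siScramble, differences of -1.12 and -0.98. With the GC trend removed these were -0.42 and -0.65. LINC01269 measured 1.46 and 0.72 TPM with the siRNAs, against 3.88 TPM with siScramble, about 4, 2 and 11 reads. LINC00337, which overlaps ICMT on the other strand, measured 4.95 and 6.40 TPM with the siRNAs, against 11.1 TPM with siScramble, and ICMT 98.7 and 54.5 TPM, against 148 TPM with siScramble. The exons of LINC00337 and ICMT overlap, so their reads could not be told apart. LINC00884, LINC00638, LINC00524, LINC00235 and LINC01521 also measured lower with both siRNAs, each under 6 TPM in every library. LINC01479, at 1.23 TPM with siRNA1 and 2.97 TPM with siScramble, was listed at 0 with siRNA2, on about 4 and 10 reads in those libraries. LINC00235 and LINC01479 reached the mean of 1 TPM only through siScramble, so for them the filter used the difference described here.

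Some LINC genes lie beside transcription factor genes, and their values are given side by side. LINC01124 starts 784 bases from SP5, a Wnt target, and is read in the opposite direction (chromosome 2, 170712451 to 170714567, minus strand). It measured 16.6 and 2.75 TPM with siRNA1 and siRNA2, against 22.8 TPM with siScramble, and SP5 measured 170 and 39.8 TPM with the siRNAs, against 521 TPM with siScramble. Both genes were lowest with siRNA2. LINC00543 lies 6767 bases from CDX2, the intestinal homeobox factor, and measured 4.64 and 2.69 TPM with siRNA1 and siRNA2, against 8.06 TPM with siScramble. CDX2 measured 54.6 and 19.004 TPM with the siRNAs, against 161 TPM with siScramble, in the same order. LINC01220, named after its values were seen, lies 12174 bases from FOS and did not follow it. It measured 1.53 and 1.503 TPM with the siRNAs, against 2.07 TPM with siScramble, while FOS measured 335 and 340 TPM, against 36.7 TPM with siScramble. LINC00235 starts 310 bases from CAPN15 and measured 1.36 and 0.19 TPM with siRNA1 and siRNA2, against 2.92 TPM with siScramble, where CAPN15 measured 29.1 and 72.5 TPM, against 63.5 TPM. With siRNA2 the pair lay on opposite sides of siScramble.

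Over the 68 LINC genes whose nearest protein-coding gene averaged at least 1 TPM, the differences of gene and neighbour were correlated with siRNA1 at a Pearson r of 0.18 and a Spearman rho of 0.29, and with siRNA2 at 0.33 and 0.14. The points share libraries and some share a neighbour, and the correlations are a description. Of the 7 genes above 2-fold with both siRNAs, 5 had a measured neighbour. Of those neighbours 0 were at least 2-fold higher with either siRNA, where 5.27% of all genes were with siRNA1 and 6.88% with siRNA2. In 1, FOXQ1 beside LINC01394, the level was 2-fold lower with siRNA1, where 6.0% of all genes were lower. FOXQ1 measured 373 TPM with siRNA1 and 1537 TPM with siRNA2, against 806 TPM with siScramble, so the siRNAs lay on opposite sides. Counts this small in 5 genes are near the background.

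**Figure D4:**
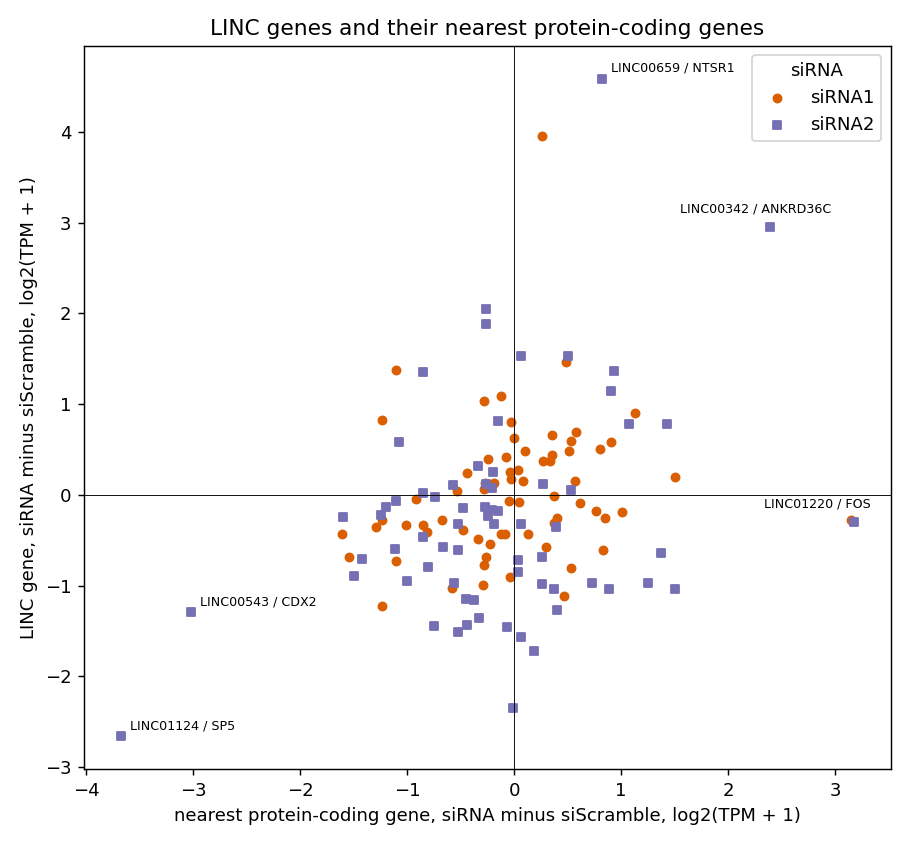
Difference from siScramble (log2(TPM + 1)) of 68 LINC genes (y axis) against that of their nearest protein-coding gene (x axis), with siRNA1 as circles and siRNA2 as squares. LINC01124 with SP5 and LINC00543 with CDX2 lie in the lower left, LINC00659 stands high above a small difference of NTSR1, and LINC01220 stays near 0 beside FOS. LINC00342 and ANKRD36C are both high with siRNA2.

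The siRNAs were then set against each other. With siRNA2, 8 LINC genes were at least 2-fold higher than with siRNA1 and 19 were at least 2-fold lower, where 5.99% and 12.8% of all genes were. The excess of lower genes was thus present in the whole matrix, whose median difference was -0.25, against -0.32 for the LINC genes. LINC01124 had the lowest value of this difference, at -2.23, with 2.75 TPM with siRNA2 against 16.6 TPM with siRNA1. LINC01224 measured 0.72 TPM with siRNA2 against 6.73 TPM with siRNA1, and 7.80 TPM with siScramble, so it was low with siRNA2 alone. LINC00847 (4.57 TPM with siRNA2 and 20.6 TPM with siRNA1), LINC00265 (1.59 and 8.95 TPM) and LINC00324 (0.83 and 5.27 TPM) were lower with siRNA2 than with siRNA1, and each was above siScramble with siRNA1. Their siScramble values were 14.2, 6.14 and 3.06 TPM. LINC01184, one of the 12 most abundant, measured 15.4 TPM with siRNA2 against 32.6 TPM with siRNA1, and 25.2 TPM with siScramble. LINC01372 was listed at 0 with siRNA2, against 3.14 TPM with siRNA1, had no length in GENCODE 29 and reached the mean of 1 TPM only through siRNA1.

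On the other side, LINC00342, LINC00346 and LINC00152 were the best covered of the genes higher with siRNA2 than with siRNA1. LINC00862 measured 2.58 TPM with siRNA2 against 0.37 TPM with siRNA1, and 1.09 TPM with siScramble. LINC01251 measured 2.22 TPM with siRNA2 and was listed at 0 with siRNA1, on about 5 reads. With siScramble it measured 0.87 TPM, so it reached the mean of 1 TPM only through siRNA2, as LINC00346, LINC00431 and LINC00862 did. For these genes the filter used the difference counted. Mitochondrially encoded mRNAs took 1.41% of TPM with siRNA2 and 8.05% with siRNA1, against 5.15% with siScramble, and the part of that difference in the LINC values was not tested beyond the setting that leaves those genes out.

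Some rows of the class are now known to encode small proteins. RefSeq lists 5 of the 110 as protein-coding: LINC00116, LINC00998, LINC01420, LINC00493 and LINC00094. LINC00116 encodes mitoregulin, a microprotein of mitochondria, and measured 23.1 and 25.1 TPM with siRNA1 and siRNA2, against 31.6 TPM with siScramble. LINC00998, now SMIM30, measured 57.9 and 23.9 TPM with the siRNAs, against 70.0 TPM with siScramble, a difference of -1.51 with siRNA2. LINC01420 encodes NBDY, a microprotein that binds the mRNA decapping complex, and measured 55.3 and 30.2 TPM with the siRNAs, against 55.7 TPM with siScramble. LINC00493, now SMIM26, was slightly above siScramble with both siRNAs, at 19.2 and 17.5 TPM against 12.2 TPM, and its exons overlap another gene on the same strand. LINC00094, now BRD3OS and outside the list below, measured 13.4 and 6.80 TPM with the siRNAs, against 20.1 TPM with siScramble, and overlaps BRD3 on the other strand. In a list of 7 microprotein genes, 5 averaged at least 1 TPM, 0 were at least 2-fold from siScramble with both siRNAs and 1, LINC00998, was 2-fold lower with siRNA2. Of all genes 2.52% were higher and 2.38% lower with both, and 13.2% lower with siRNA2, so counts this small in 5 genes are near the background.

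A list of lincRNAs studied in carcinoma, drawn up with the LINC00659 result known, had 27 symbols, of which 17 averaged at least 1 TPM. Of these 3 were at least 2-fold higher with both siRNAs, LINC00659, LINC00941 and LINC00460, and 0 lower with both, where 2.52% and 2.38% of all genes were. As LINC00659 was known when the list was made and is 1 of the 3, the count is no independent evidence. With siRNA1, 3 were higher and 1 lower, where 5.27% and 6.0% of all genes were. With siRNA2, 6 were higher and 0 lower, where 6.88% and 13.2% of all genes were. The list's medians were 0.18 with siRNA1 and -0.02 with siRNA2, against 0.03 and -0.24 for all genes. LINC00511 measured 18.5 and 13.6 TPM with siRNA1 and siRNA2, against 13.8 TPM with siScramble. LINC00665 measured 15.5 and 6.98 TPM with the siRNAs, against 13.8 TPM with siScramble, low with siRNA2 alone. LINC01234 measured 3.04 and 1.78 TPM with the siRNAs, against 4.45 TPM with siScramble. LINC00467 (4.69 and 2.43 TPM with the siRNAs, against 2.77 TPM with siScramble), LINC01503 (3.17 and 2.84 TPM, against 2.53 TPM) and LINC01559 (1.44 and 0.76 TPM, against 1.67 TPM) stayed within 2-fold on the log2(TPM + 1) scale. LINC01296, now the pseudogene DUXAP9 and a member of a family of near copies, measured 22.6 and 15.9 TPM with the siRNAs, against 23.6 TPM with siScramble.

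Long non-coding RNAs with names of another kind were counted for comparison. Of 41 listed, 29 averaged at least 1 TPM, 2 were at least 2-fold higher with both siRNAs and 1 was 2-fold lower with both, where 2.52% and 2.38% of all genes were. SPRY4-IT1, from an intron of SPRY4, measured 17.8 and 16.6 TPM with siRNA1 and siRNA2, against 0.91 TPM with siScramble, and its reads could not be told apart from those of SPRY4. MIR22HG, the host of a microRNA, measured 24.0 and 29.6 TPM with the siRNAs, against 11.5 TPM with siScramble. GATA6-AS1, antisense to the endoderm factor GATA6, was the lower one, at 6.14 and 3.91 TPM with the siRNAs, against 15.4 TPM with siScramble. H19, the imprinted RNA, measured 2714 and 3245 TPM with the siRNAs, against 3387 TPM with siScramble, and MALAT1, a nuclear RNA, 21.7 and 12.6 TPM, against 10.4 TPM with siScramble. The list's medians were 0.12 with siRNA1 and 0.17 with siRNA2, against 0.03 and -0.24 for all genes.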

How the data were processed

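The authors deposited 1 table of TPM per gene symbol with 1 column per library, per the file headers. The build was GRCh38, per the submitters' processing notes. Neither quantification tool nor annotation is named in those sources. The columns summed to 998717 (siRNA1), 998406 (siRNA2) and 998273 (siScramble) TPM. Depth, read from steps of TPM times GENCODE 29 exon length, was about 18300000, 18900000 and 18100000 reads. Of low values, 92.8% to 93.1% came within 0.1 of a whole read, where chance gives 20.0%. Poisson intervals cover counting error only.

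Values entered as log2(TPM + 1), for genes averaging at least 1 TPM. The test was limma 3.58.1 (R 4.3.3, trended prior), adjusted by Benjamini-Hochberg over all genes, at 0.05. Limma and the depth step were tested on simulated data. P-values describe the spread of these 3 libraries alone, which may be technical. Current symbols and start-site windows came from RefSeq. Named by rule were LINC00659, the 12 genes with the highest mean, the 10 at each end of the ranking by the smaller difference where both siRNAs share a sign, the 6 differing most each way between siRNAs, 3 either side of the threshold, measured list members, FOXP4 and nearest protein-coding genes. Members and lists were chosen with earlier results of these data known.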

Additional observations from a re-analysis of the deposited data

How the results depend on the processing

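The count of LINC genes at least 2-fold higher with both siRNAs was 7 and moved to 2 with a pseudocount of 5 and 4 with the filter raised to 10 TPM, which tests fewer genes. The count lower with both was 0 and moved to 6 with a pseudocount of 0.1, 3 with no filter on low values, and 1 each with quantile normalization, with mitochondrially encoded genes left out and with the GC trend removed. Higher with siRNA2 than with siRNA1 were 8, moving to 2 with a pseudocount of 5 and 2 with the 10 TPM filter. Lower with siRNA2 than with siRNA1 were 19, moving to 6 with a pseudocount of 5, 6 with the 10 TPM filter, 12 with quantile normalization and 12 with the GC trend removed. Beyond what fewer genes or a larger pseudocount bring by construction, the cause was not tested. Limma called 0 LINC genes and 0 of 14429 genes, with 428 genes at an unadjusted p under 0.05. It called 1 LINC gene, LINC00659, among 93 genes called with the 10 TPM filter and among 9 with mitochondrially encoded genes left out, and 1 gene in all, no LINC gene, under median-of-ratios rescaling. Leaving out 1 siRNA, a value with no test, gave 9 to 12 LINC genes at least 2-fold higher and 5 to 19 lower. The siScramble library could not be left out. Among the single named genes no difference past 2-fold changed its sign under the settings run. Of 7 genes higher with both siRNAs, 4 remained with the GC trend removed, where LINC00941 had no sequence to correct. Restricting to genes whose exons overlap no other exon, chosen after seeing the data, gave 5 of 73. No paired analysis was possible because the control has 1 library, so the groups share fewer than 2 replicate numbers. Depth limits genes under about 10 reads most.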
